A study of Mus musculus with 2 samples.

Results

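The FOS and JUN family of the AP-1 transcription factors was followed here in mouse macrophages: Fos, Fosb, Fosl1, Fosl2, Jun, Junb, Jund, Atf3, Jdp2 and Batf. These 10 genes were taken by symbol out of 55536 annotated genes and joined by gene identifier between the gene and transcript tables. The rule uses no measured value. The series held 2 libraries of polyadenylated RNA from bone marrow-derived macrophages of C57BL/6J mice, treated for 30 min at 100 ng/ml, and both are biological replicates of this single group. The labels disagree on the agent, which one field calls Lipid A, the TLR4-binding anchor of lipopolysaccharide, and the others lipoprotein A, classed as a protein. Both libraries derive from the same donor record, and age and sex were not collected. With no untreated sample, a level at 30 min does not show whether a gene was induced. Levels and differences in bulk RNA do not separate fewer cells of a type from less RNA per cell.

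AP-1 is a dimer of basic leucine zipper (bZIP) proteins that binds the sites TGACTCA and TGACGTCA. FOS proteins cannot pair with themselves and bind DNA with a JUN partner, while JUN proteins also pair with each other. Fos, Fosb, Jun, Junb and Atf3 are textbook immediate early genes, transcribed within minutes of a signal through MAP kinases without new protein synthesis, and their mRNAs are short-lived. ATF3, JDP2 and BATF share the zipper but lack the strong activation domains of FOS and JUN, and often act as repressors or with IRF factors.

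Replicate 1 held 37784941 expected counts over genes and replicate 2 held 51904470. An rRNA gene, CT010467.1, took 10.9% and 5.05% of them and so lowers the TPM of all other genes unequally. The biological coefficient of variation between the libraries was 0.250, as estimated by edgeR. All 8 macrophage markers exceeded 10 TPM in each library, with summed levels of 22021 and 28382 TPM. Lyz2 alone held 15907 and 22127 TPM of these sums. In the comparison of the libraries described below, 3 of the 8 were higher and 5 lower in replicate 2. Over all genes tested, that comparison called 32.2% higher and 31.3% lower. Of 6 T cell markers only Cd4, which macrophages also express, reached 1 TPM in both libraries, and of 4 B cell markers only Cd79b did. None of 3 NK cell, 6 neutrophil, 4 dendritic cell, 4 mast cell, 4 fibroblast, 3 erythroid or 3 endothelial markers did so. The neutrophil markers summed to 4.65 TPM in replicate 1 and 0.55 TPM in replicate 2, and their part in differences between the libraries was not tested.

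All members but Fosl1, 9 of 10, reached 1 TPM in each library; TPM is a relative abundance scaled for transcript length and depth. Of these 9 members, 8 reached 10 TPM and 4 reached 100 TPM in both, namely Fos, Junb, Atf3 and Jun. Of the 10658 genes that passed 1 TPM in each library (detected genes), 1085 reached 100 TPM, or 10.2%. Together the family held 2650 TPM in replicate 1 and 2665 TPM in replicate 2. The total differed little between the libraries, but its makeup did: Fos took 45.7% of it in replicate 1 and 30.8% in replicate 2.

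**Figure D1:**
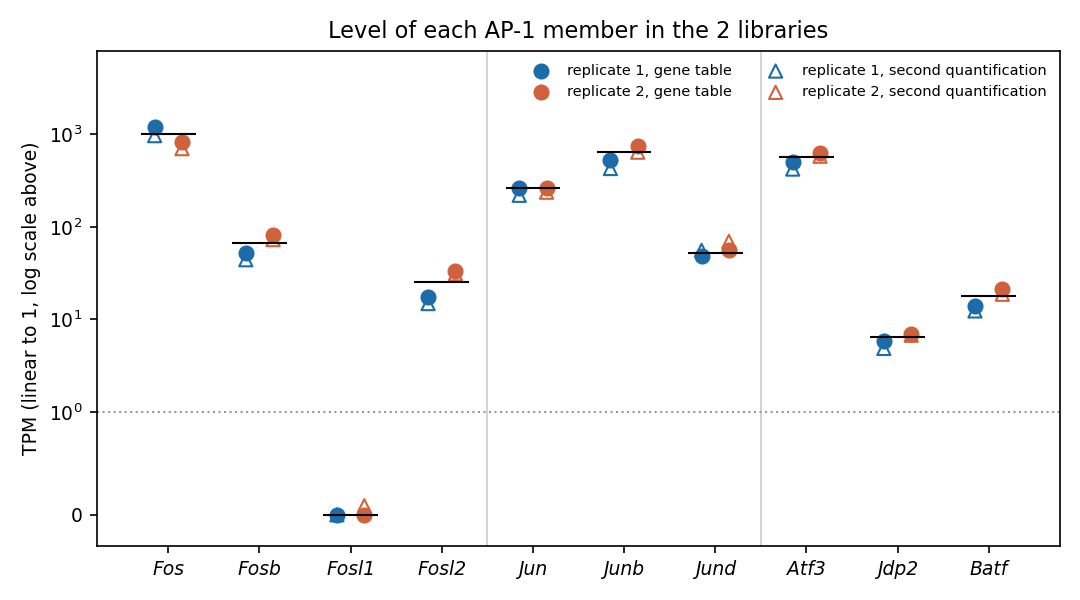
TPM (vertical axis, linear up to 1 and logarithmic above) of the 10 AP-1 genes in each library; filled circles are the gene table, open triangles the second quantification, black lines the mean of the 2 circles, and the dotted line 1 TPM. Fos stands highest at 1211 and 822 TPM, Fosl1 is at 0 in the gene table, and the Jund triangles lie above their circles while those of the other detected members lie below.

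Fos (ENSMUSG00000021250.13, chr12:85473890-85477273, mm10) encodes the founding FOS protein. It was at 1211 TPM in replicate 1 and 822 TPM in replicate 2, or 1016 ± 275 TPM (SD, n = 2), from 54355 and 51469 expected counts. It ranked 110 by mean level among the 10658 detected genes, 90 in replicate 1 and 153 in replicate 2. Replicate 1 was the higher library, and even the lower one exceeded the higher Junb value. The 250 bases before its start follow, from RefSeq on GRCm38.p6, shown because this is the family's most abundant mRNA. They lie at chr12:85473640-85473889 on the plus strand, and capitals mark, in order, an NF-kB site, 2 copies of the half-site TGACG and a TATAAA, on either strand, with GGGCGG left in lower case.
Fos promoter: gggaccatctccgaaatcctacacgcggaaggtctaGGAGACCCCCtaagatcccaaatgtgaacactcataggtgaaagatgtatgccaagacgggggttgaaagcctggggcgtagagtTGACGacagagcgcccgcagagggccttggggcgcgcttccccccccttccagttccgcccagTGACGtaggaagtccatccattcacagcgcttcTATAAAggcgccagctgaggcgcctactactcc
The CArG box of the serum response element, through which MAP kinases act on Fos, is known to lie further upstream than this window reaches and was not found in it.

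Fosb, at chr7:19302696-19310051, encodes the closest relative of FOS. Its level was 52.5 TPM in replicate 1 and 80.9 TPM in replicate 2 (66.7 ± 20.1, SD, n = 2), so that replicate 2 was the higher library, the reverse of Fos. Fos exceeded Fosb 23.1 times in replicate 1 and 10.2 times in replicate 2. The 250 bases before the RefSeq start of Fosb (chr7:19310046-19310295, minus strand, GRCm38.p6) are shown for comparison with Fos, with an NF-kB site and a TGACG in capitals and no TATAAA.
Fosb promoter: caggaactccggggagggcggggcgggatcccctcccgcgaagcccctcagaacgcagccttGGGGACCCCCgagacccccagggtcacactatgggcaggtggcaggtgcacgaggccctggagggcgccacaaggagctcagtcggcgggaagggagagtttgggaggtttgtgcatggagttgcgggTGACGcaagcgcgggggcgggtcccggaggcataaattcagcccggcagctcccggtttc

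Fosl2 (chr5:32135801-32157842) encodes FRA-2, a FOS protein known for later and longer-lasting expression. It was at 17.6 TPM in replicate 1 and 33.0 TPM in replicate 2 (25.3 ± 10.9, SD, n = 2), from 2738 and 7201 expected counts. Replicate 2 was the higher library here too, with the largest TPM ratio of the family, 1.88. Fosl1 (chr19:5447547-5455946), which encodes FRA-1, had 0 expected counts in both libraries, which allows up to 3 counts, or 0.0794 and 0.0578 CPM, counts scaled to library size, a limit that covers counting error only. The second quantification gave it 0 and 1 counts. The opposite-strand gene Ccdc85b covers 62.4% of the bases of Fosl1-201 and had 109 and 152 counts, and the sources used here do not state whether counting used strand.

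The JUN genes supply the partners that FOS needs. Junb (chr8:84974484-84978718), an immediate early member that often restrains JUN, was at 532 TPM in replicate 1 and 748 TPM in replicate 2 (640 ± 153, SD, n = 2). Jun (chr4:95049034-95052222), the founding member, was at 261 TPM in both (260.6 and 261.3; SD 0.460, n = 2), the closest pair of values in the family among detected members. Jund (chr8:70698949-70700616), known for steady expression in resting cells, was at 48.5 and 56.4 TPM (52.5 ± 5.59, SD, n = 2). Junb exceeded Jun 2.04 times in replicate 1 and 2.86 times in replicate 2, and exceeded Jund 11.0 and 13.3 times. In the second quantification Junb exceeded Jun 1.95 and 2.71 times, and Jund only 7.66 and 9.21 times. Jund was the only detected member whose mean TPM was higher in the second quantification, at 1.20 times the first, where the other 8 lay between 0.820 and 0.908 times. The opposite-strand gene Gm11175 covers 52.6% of the single exon of Jund and had 3.12 and 0 counts. Its part in that difference was not tested.

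Atf3 (chr1:191170296-191218039), a stress-induced repressor of inflammatory genes in macrophages, was at 508 TPM in replicate 1 and 636 TPM in replicate 2 (572 ± 90.1, SD, n = 2). Its values overlap those of Junb, and it ranked 210 among detected genes. Batf (chr12:85686669-85709087), known chiefly for its role with IRF factors in lymphocytes and dendritic cells, was at 14.1 and 21.3 TPM (17.7 ± 5.04, SD, n = 2). Jdp2 (chr12:85599027-85639878), a repressor that binds JUN, was the lowest detected member at 5.88 and 7.01 TPM (6.45 ± 0.799, SD, n = 2), from 191 and 325 expected counts.

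In order of mean level in the first quantification the family ran Fos, Junb, Atf3, Jun, Fosb, Jund, Fosl2, Batf, Jdp2 and Fosl1. By mean level in the second quantification Jund, at 62.7 TPM, stood above Fosb, at 58.5 TPM. Neighbouring pairs with overlapping values across the 2 libraries were Junb and Atf3, Fosb and Jund, and Fosl2 and Batf. Their ranges are thus not separated from the spread between libraries, though each pair kept its order within each library. Junb exceeded Atf3 1.05 times in replicate 1 and 1.18 times in replicate 2. Fosb exceeded Jund 1.08 and 1.43 times, and Fosl2 exceeded Batf 1.24 and 1.55 times. The remaining neighbours did not overlap, but Fos exceeded Junb by only 1.10 times within replicate 2, against 2.28 times within replicate 1.

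Summed by subfamily, FOS mRNAs were at 1281 TPM in replicate 1 and 936 TPM in replicate 2 (1108 ± 244, SD, n = 2). JUN mRNAs were at 841 and 1066 TPM (954 ± 159, SD, n = 2), so the FOS and JUN ranges overlap. Atf3, Jdp2 and Batf together held 528 and 664 TPM, nearly all of it Atf3. The ratio of FOS to JUN mRNA was 1.52 in replicate 1 and 0.878 in replicate 2, and 1.46 and 0.848 in the second quantification. FOS mRNA thus exceeded JUN mRNA in the one library and was below it in the other, by either quantification.

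With a single group, the only test the design allows compares the 2 libraries with each other, beyond sampling noise and not between conditions. Each gene's rounded expected counts were set against library sizes scaled by TMM (a trimmed mean of ratios, from edgeR) in a two-sided exact binomial test, adjusted over 12266 genes by Benjamini-Hochberg at 0.05. In replicate 2, 6 of the 9 members tested were higher, 2 were lower and 1 was not called. Over all genes the same test called 32.2% higher and 31.3% lower, so a call says little about any 1 gene. No member differed by more than 2-fold, against 8.08% of all genes tested. The members' median log2 ratio of replicate 2 to replicate 1 was 0.31, against 0.00 for all genes tested, whose SD was 0.58.

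Fosl2 differed most, with a log2 ratio of 0.82 (95% exact interval 0.76 to 0.88, counting error only; adjusted p = 1.69e-150 in the exact binomial test). Fos was the member furthest the other way, at -0.65 (-0.67 to -0.64), or 1.57-fold higher in replicate 1. Among all genes tested, 6.63% had a lower ratio than Fos and 92.6% a lower ratio than Fosl2. Fosb stood at 0.53, Batf at 0.46, Junb at 0.40, Atf3 at 0.31 and Jund at 0.12 (exact binomial adjusted p = 0.0112 for Jund), all higher in replicate 2. Jdp2, at 0.19 (-0.07 to 0.46), did not pass (exact binomial adjusted p = 0.205). Jun was lower by 1.06-fold, at -0.08, and its sign turned with total-count scaling (0.04) and with log2(TPM + 1) (0.0036). Scaling by total counts moved the median ratio of all genes up by 0.12 and their calls from 3945 higher and 3844 lower to 5259 higher and 2486 lower, or from 50.6% to 67.9% higher. The members' calls became 8 higher and 1 lower under it, Fos alone staying lower.

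**Figure D2:**
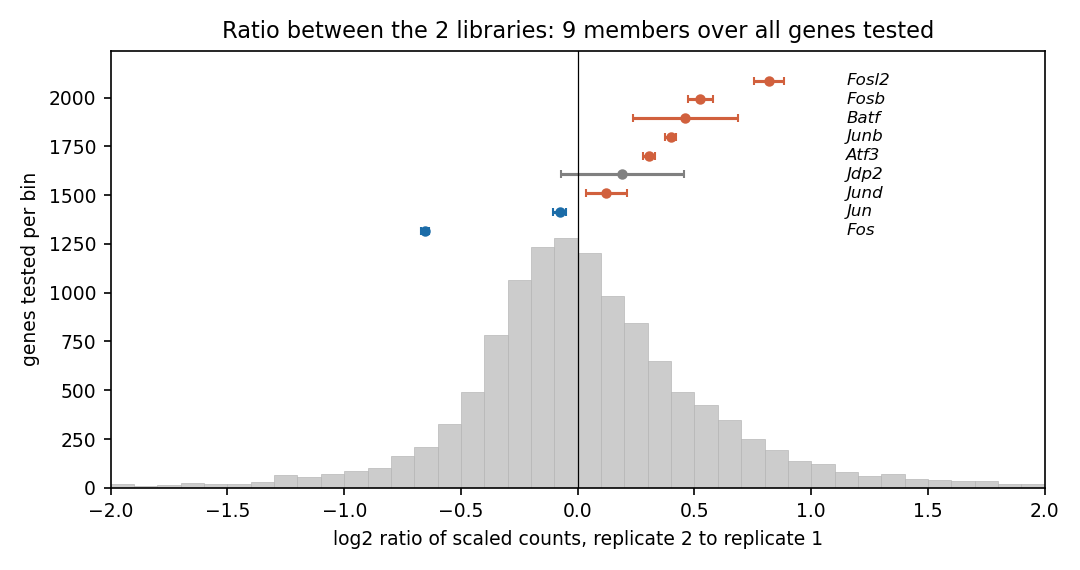
Log2 ratio of TMM-scaled counts, replicate 2 to replicate 1 (horizontal axis, shown from -2 to 2), for the 9 members tested (points, stacked for legibility, with 95% exact intervals for counting error) above a histogram of all 12266 genes tested (vertical axis, genes per bin of 0.1). Orange points were called higher in replicate 2, blue lower and grey not called. Fos at -0.65 lies far to the left of the other members, which run from -0.08 (Jun, whose sign depends on the scaling) to 0.82 (Fosl2).

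The annotation lists 30 transcripts for the 10 genes, and single transcripts carried nearly all of the signal of Fos, Fosl2, Junb and Batf. Fos-201 took 96.8% and 96.3% of Fos TPM in replicates 1 and 2, Fosl2-201 took 99.1% and 97.2%, Batf-201 took 100% and 99.5%, and Junb-201 took over 99% in both. Jun and Jund have a single annotated transcript, of a single exon. Fosb, Atf3 and Jdp2 were divided among several.

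Fosb-201 codes for the full protein of 338 codons and took 72.3% of Fosb TPM in replicate 1 and 65.1% in replicate 2. Fosb-206 and Fosb-207 lack a stretch of 140 bases in the last exon (chr7:19305007-19305146, minus strand, mm10). This is the splice that yields the truncated protein called ΔFosB, known for its stability and its lack of the C-terminal activation domain. The stretch is given from Fosb-201 in capitals, with 20 bases of coding sequence on each side, because it separates Fosb-201 from the 2 shorter forms.
Fosb-201 around the stretch: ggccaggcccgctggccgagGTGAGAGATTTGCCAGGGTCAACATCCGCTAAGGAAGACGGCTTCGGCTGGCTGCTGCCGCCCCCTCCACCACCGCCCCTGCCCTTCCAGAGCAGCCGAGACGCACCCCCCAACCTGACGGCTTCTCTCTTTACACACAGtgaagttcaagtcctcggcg
Fosb-206 and Fosb-207 at the join: ccgctggccgagtgaagttcaagt
The stretch begins with GT and ends with AG, as introns do, and its removal places a tga stop codon directly after codon 237. Fosb-206 thus codes for 237 codons, and Fosb-207, which also lacks the third exon, for 201. The 2 transcripts therefore code for different short proteins.

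Fosb-206 and Fosb-207, the coding transcripts spliced across the stretch, took 24.1% of Fosb TPM in replicate 1 and 26.6% in replicate 2. These shares are not those of a single protein. Most of the counts were assigned to Fosb-207, at 14.9% and 16.4% of Fosb counts, against 2.40% and 2.68% for Fosb-206. By counts their share was 17.3% (730.7 of 4224 counts; 95% Wilson interval 16.2% to 18.5%) and 19.1% (1729 of 9057; 18.3% to 19.9%). The intervals overlap. In the second quantification the TPM shares were 21.3% and 22.6% and the count shares 12.6% and 13.6%, outside both intervals, which cover counting error and not the assignment of reads to transcripts. The division between the 2 short forms was less certain: Fosb-207 took 14.7% and 16.0% in the first quantification but 8.98% and 9.80% in the second, and Fosb-206 took 9.38% and 10.6% against 12.3% and 12.8%.

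The annotated retained-intron transcript Fosb-204 holds 2461 bases of intron and ends before the stretch of 140 bases. It is therefore counted neither with the transcripts that hold the stretch nor with those spliced across it. It took 2.56% of Fosb counts in replicate 1 (108.2 counts; Wilson interval 2.13% to 3.08%) and 6.35% in replicate 2 (575.4 counts; 5.87% to 6.87%), a share 2.48 times as large. Over 3236 genes with retained-intron transcripts, the median share was 1.52% and 3.23%, and 81.6% of these genes had a larger share in replicate 2, so the direction in Fosb is that of most genes. Of these genes, 63.4% had a smaller ratio of shares than Fosb. The retained-intron transcripts of Fosl2 took 0.452% and 1.18% of its counts. This view over all genes was added after the Fosb values were seen.

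**Figure D3:**
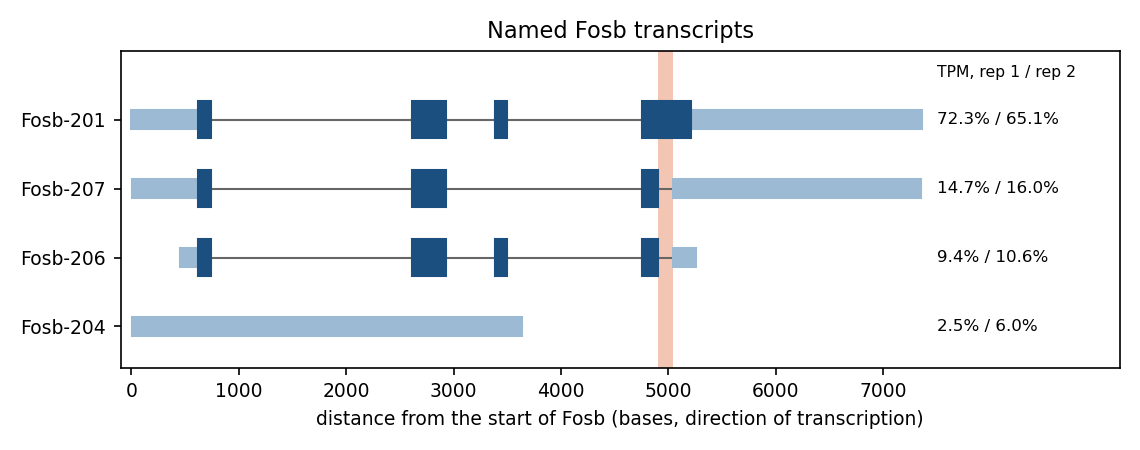
Exons (light blocks) and coding parts (dark blocks) of the 4 named Fosb transcripts along the gene (horizontal axis, bases from its start in the direction of transcription), with the stretch of 140 bases shaded and each transcript's percent of Fosb TPM in replicates 1 and 2 at the right. The coding part of Fosb-207 and Fosb-206 ends where the shaded stretch begins, and Fosb-204 runs unspliced from the start.

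Atf3-201 codes for 181 codons and took 74.3% of Atf3 TPM in replicate 1 and 79.5% in replicate 2. Nearly all of the rest, 25.6% and 20.5%, fell to Atf3-202, a processed transcript with no annotated coding part that lacks 106 bases of the first coding exon (chr1:191177341-191177446, minus strand, mm10). By counts Atf3-202 took only 4.89% (Wilson interval 4.57% to 5.22%) and 3.45% (3.25% to 3.65%). At 517 bases against 1984 for Atf3-201, it gains share when counts are scaled to TPM. The ratio of these lengths accounts for only part of that gain. The share was lower in replicate 2 by either measure, and in the second quantification as well (30.1% and 26.5% of TPM, 6.75% and 5.62% of counts). The count shares of the second quantification lie above the intervals of the first. The bases it lacks are shown in capitals within Atf3-201, since their number is not a multiple of 3 and their removal breaks the reading frame after codon 8.
Atf3-201 around the stretch: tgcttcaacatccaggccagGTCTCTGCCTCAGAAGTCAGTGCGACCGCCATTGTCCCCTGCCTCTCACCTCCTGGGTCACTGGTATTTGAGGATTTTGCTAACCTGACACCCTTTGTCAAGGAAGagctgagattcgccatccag

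Jdp2 has 3 named coding transcripts of 163 codons each that differ in the first exon. Jdp2-202 took 93.7% of Jdp2 TPM in replicate 1 and 55.6% in replicate 2, Jdp2-201 took 6.29% and 24.4%, and Jdp2-203 took 0% and 20.0%. The counts behind these shares are few. Jdp2-202 had 178.2 and 175.2 counts with posterior SDs of 20.6 and 43.3, Jdp2-201 had 12.8 and 82.3 counts with SDs of 16.1 and 33.4, and Jdp2-203 had 0 and 67.5 counts with SDs of 12.3 and 28.8. In the second quantification Jdp2-202 took 92.9% and 60.0%. By both quantifications Jdp2-202 took nearly all of Jdp2 TPM in replicate 1, and the division was more even in replicate 2. This difference between the libraries was not tested.

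**Figure D4:**
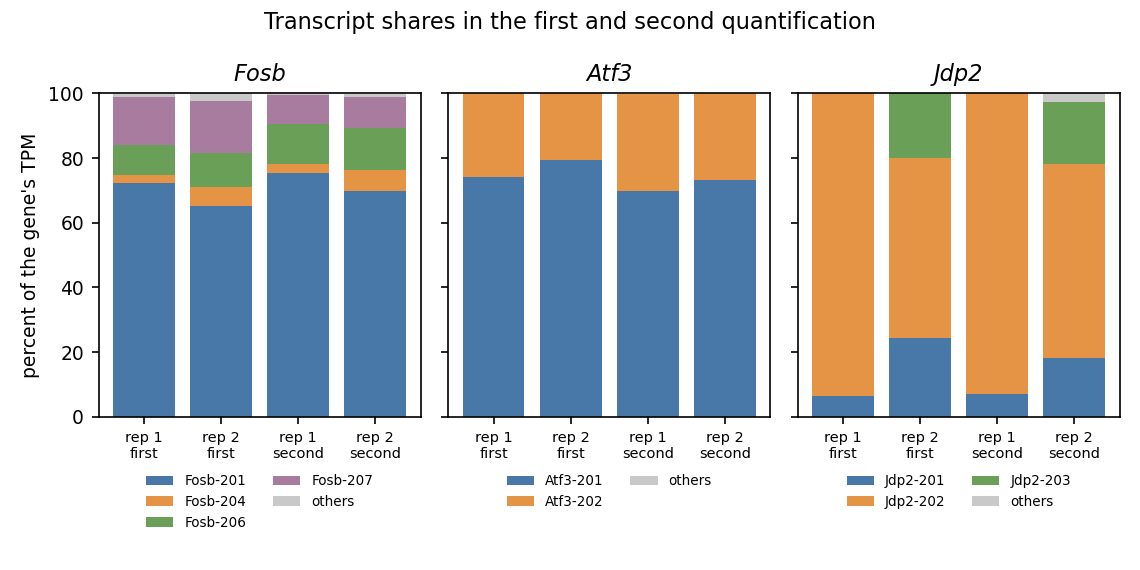
Percent of each gene's TPM (vertical axis) taken by the annotated transcripts of Fosb, Atf3 and Jdp2 in replicates 1 and 2, by the first and the second quantification (bars; grey, transcripts under 5%). Fosb-201 stays between 65.1% and 75.5% and Atf3-201 between 69.8% and 79.5%, while Jdp2-202 runs from 92.9% or more in replicate 1 to 60.0% or less in replicate 2.

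RefSeq promoter windows, from 250 bases before to 50 after a start, were found for 9 of the 10 genes, with 3 windows for Jdp2 and none for Fosl1. Motifs were searched on both strands. The full AP-1 sites TGACTCA and TGACGTCA were in none of the members' windows and in 5.20% and 1.79% of all 32851 windows. The half-site TGACG, which TGACGTCA contains, was in windows of 6 members (Fos, Fosb, Junb, Atf3, Jdp2 and Batf) and in 20.8% of all windows. Jdp2 was counted for a match in any of its 3 windows, while the shares are per window. Its TGACG lay only in the window of a start 602 bases upstream of that of Jdp2-202, whose own window held none. TATAAA was in those of Fos and Junb (13.6% of all), the NF-kB site in those of Fos, Fosb and Fosl2 (4.51% of all), the CArG box in none (1.63% of all), and GGGCGG in those of 7 members (35.7% of all). The RefSeq starts of Jund and Fosl2 lie 1210 bases upstream and 671 bases downstream of the starts of Jund-201 and Fosl2-201, so their windows do not describe those starts. A match is a description of letters, not of binding.

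AU-rich elements in 3′ UTRs, built on ATTTA, are the classic signal for rapid decay of Fos and cytokine mRNAs. Fos-201 held 4 copies of ATTTA in 815 bases of 3′ UTR, or 4.91 per kb, more than 92.8% of 9876 detected protein-coding genes. Junb-201 held 2 in 485 bases (4.12 per kb), Jun-201 4 in 1233 (3.24 per kb), Atf3-201 3 in 1186 (2.53 per kb) and Fosl2-201 8 in 4653 (1.72 per kb). Fosb-201 held 1 in 2145 bases, or 0.466 per kb, and Jund-201 held 1 in 533. Jdp2-202 and Batf-201 held none. The median gene held 1.26 per kb. The 4 most abundant members, Fosl2 and Jund thus lay above the median, and Fosb, the paralogue of Fos, lay below it with Jdp2 and Batf.

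The longer element TTATTTATT was found in Fos and Fosl2 alone among the 9 detected members, and in 6.95% of detected protein-coding genes. The 30 bases richest in ATTTA (in capitals) are given for both, since this element sets them apart within the family. They lie at chr12:85477092-85477121 (plus strand) and chr5:32156860-32156889 (plus strand), mm10.
Fos-201 site: cgtttttattgtgttttcaATTTATTTAtt
Fosl2-201 site: aagaaattgacATTTAttttattATTTAtt

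Among 43 bZIP genes, the 10 members and 33 possible partners and relatives, Fos, Junb and Atf3 ranked 1 to 3 by mean TPM and Jun ranked 5. Nfe2l2, the regulator of antioxidant genes, ranked 4 at 255 and 427 TPM, and Maf followed Jun at 147 and 181 TPM. Ddit3, which encodes the stress factor CHOP, was at 87.8 and 128 TPM, and Nfe2l1 at 102 and 94.6 TPM. Fosb and Jund ranked 13 and 14, Fosl2 23, Batf 29, Jdp2 33 and Fosl1 42. Of the 33 other genes, 28 were detected, and Mafa, Nfe2l3, Bach2, Cebpe and Nrl were below it in both. Of 29 tested, 16 were higher and 8 lower in replicate 2, with a median log2 ratio of 0.22. Over all genes tested, 32.2% were higher and 31.3% lower.

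**Figure D5:**
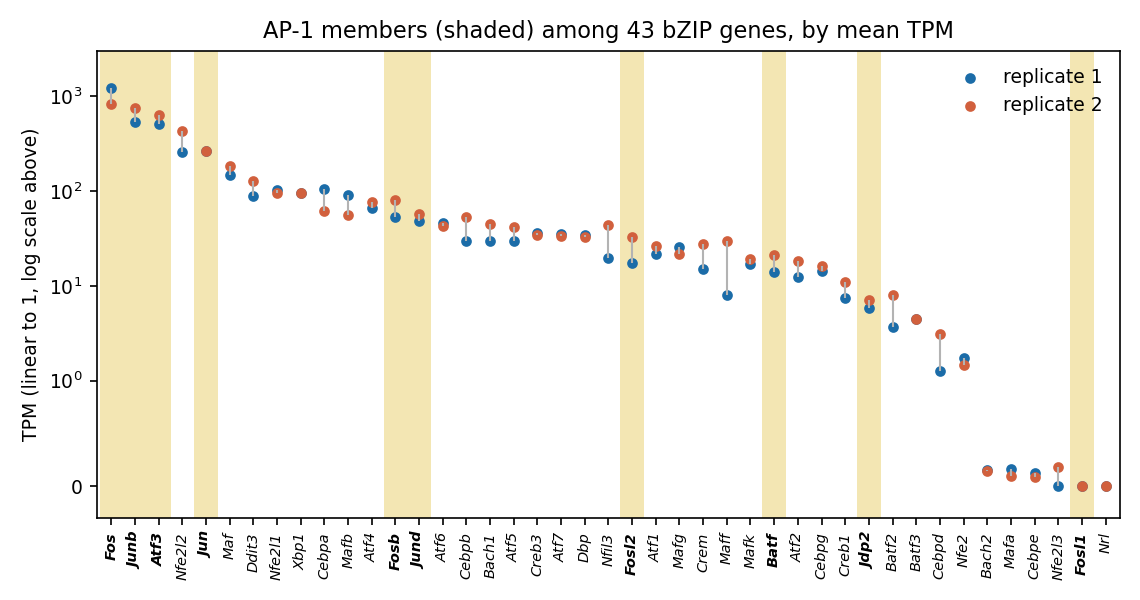
TPM (vertical axis, linear up to 1 and logarithmic above) of 43 bZIP genes in replicate 1 (blue) and replicate 2 (orange), ordered by mean TPM, with the AP-1 members shaded. Of the 5 leading genes only Nfe2l2 is no AP-1 member, and Fosl1 is at 0 with Nrl.

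Most of the genes that act on AP-1 were detected. All 6 serum response factors exceeded 10 TPM, led by Mrtfa (39.8 and 39.4 TPM), Elk3 (16.1 and 18.8), Mrtfb (16.1 and 15.6) and Elk4 (12.0 and 14.9); 1 was higher and 4 lower in replicate 2. In the MAP kinase route 19 of 23 genes were detected, among them the ERK gene Mapk3 (130 and 155 TPM), Mapkapk2 (104 and 133) and the p38 gene Mapk14 (68.0 and 72.9). The JNK gene Mapk10, known from neurons, and the p38 genes Mapk12 and Mapk13 were below 1 TPM in both. Of 20 tested in this route, 11 were higher and 5 lower in replicate 2, with a median log2 ratio of 0.14. The shares over all genes tested, to set beside both lists, were 32.2% higher and 31.3% lower.

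All 12 genes for turnover of AP-1 mRNA and protein were detected. Zfp36, which encodes the ATTTA-binding decay factor tristetraprolin, was at 1091 and 1356 TPM, in the range of Fos itself. Its relatives Zfp36l1 (156 and 242 TPM) and Zfp36l2 (119 and 143) and the AU-binding Hnrnpd (142 and 117) followed; 6 of the 12 were higher and 2 lower in replicate 2. Among 12 other immediate early genes, all above 10 TPM, Egr1 stood at 700 and 618 TPM and Dusp1 at 575 and 679. Ier2 stood at 508 and 540 TPM, and Btg2 at 318 and 450. Of these 12 genes, 7 were higher and 3 lower in replicate 2. The shares over all genes tested, to set beside both lists, were 32.2% higher and 31.3% lower.

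Of 20 textbook AP-1 targets, 14 were detected in both libraries, led by Spp1 (osteopontin; 2400 and 2935 TPM), Tnf (855 and 1691), Vim (1146 and 763) and Cxcl2 (439 and 955). The protease gene Mmp3 and its inhibitor Timp1 were below 1 TPM in both. Of 17 tested, 8 were higher and 8 lower in replicate 2, with a median log2 ratio of 0.02. Over all genes tested, 32.2% were higher and 31.3% lower. Among the leading targets, the inflammatory genes Tnf and Cxcl2 were higher in replicate 2, by log2 ratios of 0.89 and 1.02, and Spp1 by 0.19. Vim, an intermediate filament gene, was lower, at -0.60. Less abundant targets differed more in both directions, with log2 ratios over the tested targets running from -1.55 to 2.96.

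Fos, Jdp2 and Batf lie in this order on chromosome 12, with 121.8 kb between Fos and Jdp2 and 46.8 kb between Jdp2 and Batf. Of 10 other genes within 100 kb of any of them, 7 had 0 counts in both libraries. Only Tmed10, a secretory pathway gene at 333 and 292 TPM, was above 1 TPM in both. Gm47863, a noncoding gene on the opposite strand that overlaps the Jdp2 gene by 165 bases but not Jdp2-202, had 77 and 42 counts (1.61 and 0.63 TPM), and Flvcr2 had 5 and 8 counts. On the same strand, Fos and Jdp2 were thus at mean levels of 1016 and 6.45 TPM. Prdx2 overlaps the annotated Junb gene by 351 bases but not Junb-201, and the antisense gene Junos, with 4.02 and 16.0 counts, covers 7.28% of Jun-201.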

How the data were processed

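Polyadenylated RNA of 2 libraries from a single group was measured. Per the deposited text files, values were made on mm10 with annotation M21; no source used here names the tools. The deposited gene tables gave expected counts (estimated reads per gene, not normalized) and TPM from a transcriptome alignment. A second deposited transcript table gave estimated counts and TPM derived from the reads and an index, and was summed per gene as the second quantification. Lengths and posterior SDs, in other units, were used as deposited. Entries naming no gene held 0.0891% and 0.0698% of counts and were left out.

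Expected counts were rounded, filtered and scaled with edgeR 4.0.16 (filterByExpr, TMM) and compared by exact binomial tests in scipy 1.17.1. A detected gene had 1 TPM or more in both libraries. The test was checked on simulated counts that varied by counting error alone. That check cannot show how the test behaves with variation between cultures. Alternatives were other limits, TPM estimates, scalings (DESeq2 1.42.0 size factors, total counts), no filter, pseudocounts, and leaving out each library. P-values and intervals cover the 2 libraries and counting error only, since reads are not independent molecules and nothing states that the cultures came from separate animals. The members and lists were chosen with earlier results of these data known. Named were all members, transcripts with 5% or more of their gene's TPM, the 4 most abundant genes of each list and those below 1 TPM, and genes near or overlapping members; 1 gene that this rule names is not reported here.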

Additional observations from a re-analysis of the deposited data

How the results depend on the processing

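The count of 9 detected members was the same under limits of 0.5 and 5 TPM, both other TPM estimates, TPM over nuclear protein-coding genes and either library alone. Rescaling TPM to nuclear protein-coding genes raised the summed FOS level to 1411 TPM and the summed JUN level to 1204 TPM, as the construction of that scale implies. Without replicate 1 or 2, the FOS sum ran from 935.6 to 1281 TPM and the JUN sum from 841.3 to 1066 TPM. With total counts in place of TMM, 1 member was lower in replicate 2 in place of 2, and the log2 ratio of Jun turned from -0.08 to 0.0398; with log2(TPM + 1) it was 0.00358 and with log2(TPM + 0.1) 0.00359. Jdp2 passed the exact binomial test only with total counts, at a log2 ratio of 0.31. DESeq2 size factors, no filter and the second quantification changed none of the member counts. Of the values of single genes and transcripts under alternatives, 107 kept their side or stayed within the SD between libraries, 23 moved beyond it, 3 turned sign (those of Jun) and 1 newly passed the test (Jdp2). The 107 include each member's mean TPM with a library left out. Such a value always lies within the SD of the pair, so these cases could not move and say nothing about stability. The binomial test needs both libraries and could not be run without one. No paired analysis was possible because the libraries belong to a single group.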
